A study of Mus musculus with 6 samples.

Results

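The regions listed as bound by OCT4 or NANOG at *Esrrb* were compared between embryonic stem cells (ESCs) that expressed *Esrrb* at 3 levels. *Esrrb* (ENSMUSG00000021255) lies on the plus strand of mouse chromosome 12 from 87702067 to 87862578 (mm9, 160512 bp). All intervals of the 6 deposited lists within 20 kb of the gene were taken, which gave 10 regions of 23767 in the lists together, and 1 more region lay within 100 kb. ChIP-Seq for each factor was made in E-GFPd1 cells (cell line label Esrrb-2a-GFPd-IBIH), E14Tg2a ESCs grown in LIF and serum. Both *Esrrb* alleles of this line carry a 2a-linked destabilised GFP downstream of the open reading frame, so the fractions were sorted on the expression of the gene examined here. Esrrb-GFP high cells were the brightest 10%, Esrrb-GFP medium cells the 15% just above the negative cells, and Esrrb-GFP negative cells lacked the reporter signal. There was 1 library for each factor and fraction, each pooled from 3 ChIPs, and all come from 1 reporter line. The sorted fractions are labelled Esrrb-High, Esrrb-Medium and Esrrb-Negative, but the source names of the last call it Esrrb-low. A region was called bound where a list held it. The lists hold positions without scores or read numbers, so depth is unknown, no signal can be compared and no test between fractions was possible. The lists do not hold expression values either, so the cell type was not checked against its markers. In the order high, medium and negative, the whole lists numbered 12449, 14464 and 10369 regions for OCT4 and 9425, 4729 and 286 for NANOG. All coordinates below are on chromosome 12 of mm9 and are counted from 1.

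ESRRB is an orphan nuclear receptor that binds DNA at an extended nuclear receptor element and activates many genes of naïve pluripotency, the state of the pre-implantation epiblast. OCT4, the product of *Pou5f1*, binds the octamer, often beside SOX2 at a composite Oct-Sox motif, and is kept in primed pluripotent cells. NANOG is a homeodomain factor whose level varies between ESCs in serum, and *Esrrb* is among its known targets. KLF factors bind GC-rich CACC boxes and take part in the same network.

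Sequences of the 5 regions in which OCT4 was listed in both high and medium cells are shown first, since the presence and the loss of OCT4 described below concern these regions. They were read from the mm9 reference 5′ to 3′, and capitals mark exact matches, on either strand, to the octamer ATGCAAAT, to the ESRRB motif TCAAGGTCA or to a KLF motif (gggtgtgg or gggcgtgg). A match in reverse orientation reads as its reverse complement, so that an octamer on the minus strand appears as ATTTGCAT.
region 2, chr12:87811892-87812131, plus strand: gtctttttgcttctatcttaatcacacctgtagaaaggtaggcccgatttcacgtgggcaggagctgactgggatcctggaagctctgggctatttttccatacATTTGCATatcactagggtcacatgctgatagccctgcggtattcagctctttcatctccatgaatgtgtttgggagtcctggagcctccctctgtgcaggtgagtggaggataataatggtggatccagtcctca
region 4, chr12:87819932-87820151, plus strand: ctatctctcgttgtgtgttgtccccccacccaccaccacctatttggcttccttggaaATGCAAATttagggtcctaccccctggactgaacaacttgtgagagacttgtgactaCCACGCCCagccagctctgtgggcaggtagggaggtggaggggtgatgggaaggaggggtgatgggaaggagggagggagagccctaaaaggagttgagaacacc
region 5, chr12:87839812-87840111, plus strand: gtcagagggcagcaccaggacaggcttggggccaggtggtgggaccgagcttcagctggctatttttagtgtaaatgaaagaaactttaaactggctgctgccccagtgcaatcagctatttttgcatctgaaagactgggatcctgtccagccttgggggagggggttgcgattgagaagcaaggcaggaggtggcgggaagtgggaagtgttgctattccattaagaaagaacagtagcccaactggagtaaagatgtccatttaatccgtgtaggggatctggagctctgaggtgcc
region 6, chr12:87842641-87842940, plus strand: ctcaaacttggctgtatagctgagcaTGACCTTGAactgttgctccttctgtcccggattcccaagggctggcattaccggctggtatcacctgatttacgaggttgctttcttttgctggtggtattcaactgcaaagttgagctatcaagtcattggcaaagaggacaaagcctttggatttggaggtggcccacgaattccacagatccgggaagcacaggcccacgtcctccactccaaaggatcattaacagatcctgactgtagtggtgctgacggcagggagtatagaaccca
region 9, chr12:87849472-87849691, plus strand: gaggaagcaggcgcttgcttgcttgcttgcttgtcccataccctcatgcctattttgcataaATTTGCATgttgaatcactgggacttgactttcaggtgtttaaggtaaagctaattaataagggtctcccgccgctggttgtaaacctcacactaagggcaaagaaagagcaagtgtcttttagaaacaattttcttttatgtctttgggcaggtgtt
Regions 2, 4, 5 and 9 are whole, and region 6 is the central 300 bp of 520 bp. Its second exact ESRRB match, from 87843009 to 87843017 on the plus strand, and its KLF match, from 87842583 to 87842590 on the minus strand, lay outside the part shown.

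Counted from the most 5′ annotated start, the 10 regions were confined to the 3′ part of the locus. The first 105225 bp of the gene, 65.6% of its length, held none, and 9 regions lay within 42.4 kb of the gene body, each in an intron of the longest transcript. The tenth lay 4974 bp downstream of the gene end. The study, which gave locations from the start used in ESCs, set its promoter amplicons around 87811067, 109000 bp from the most 5′ start. Only region 1 lay upstream of 87811067, with its centre at -3756 bp from it. The 65.6% therefore depends on the start counted from. NANOG was listed at 7 regions in Esrrb-GFP high cells, at 6 in Esrrb-GFP medium cells and at 0 in Esrrb-GFP negative cells. OCT4 was listed at 6 regions in each of the high and medium fractions and at 2 in the negative fraction. The OCT4 sets of high and medium cells shared 5 regions, and the 2 OCT4 regions of negative cells were among those 5.

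**Figure D1:**
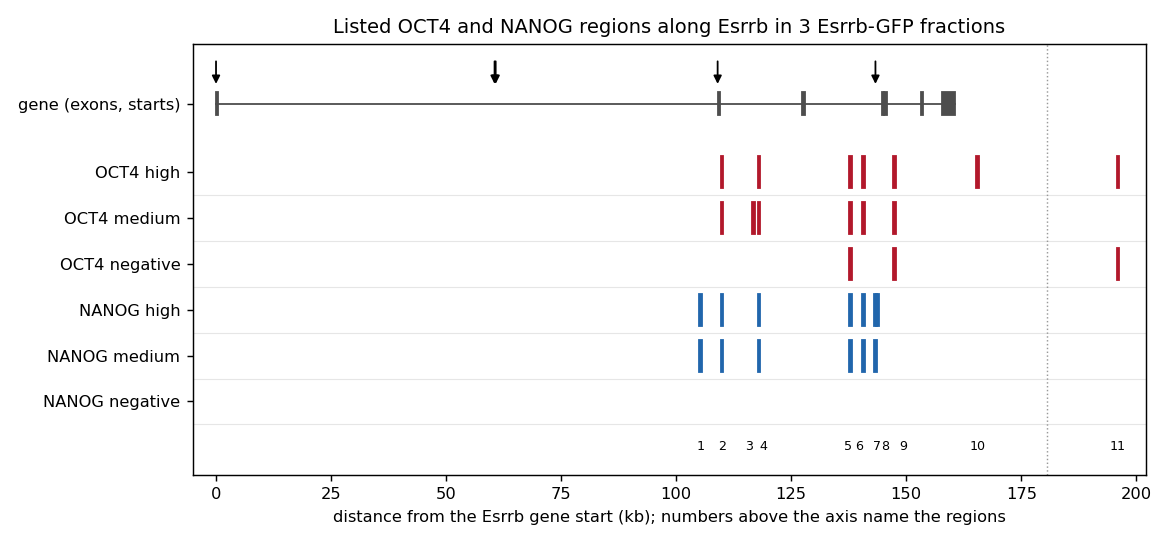
Positions of the listed regions along *Esrrb* in kb from the gene start, with 1 row for each factor and Esrrb-GFP fraction; red boxes are OCT4 and blue boxes are NANOG regions, drawn wider than to scale where narrow. The top row shows the 7 exons of the longest transcript and, as arrows, 5 annotated starts (those at 60527 and 60766 bp coincide at this scale), and the dotted line is 20 kb past the gene end. The NANOG negative row is empty, and OCT4 negative holds regions 5 and 9, with region 11 beyond the 20 kb limit.

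OCT4 and NANOG were both listed at 4 regions in Esrrb-GFP high cells, namely regions 2, 4, 5 and 6. At 3 of them, regions 2, 4 and 6, both factors were also listed in medium cells and neither in negative cells. Regions with both factors in high and neither in negative cells are called Class I here. Region 2 (87811892 to 87812131, 240 bp) lay in intron 2, with its centre 944 bp downstream of the annotated start at 87811067. Region 4 (87819932 to 87820151, 220 bp) lay in the same intron, 8974 bp downstream of that start. Region 6 (87842532 to 87843051, 520 bp), in intron 3, was the widest of the 10, and 99.4% of all 23767 regions were narrower.

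Region 5 differed from its neighbour. It lay from 87839812 to 87840111 (300 bp), 2420 bp upstream of region 6 in the same intron, and was listed for OCT4 in high, medium and negative cells but for NANOG only in high and medium cells. It is the only Class II region near *Esrrb*, where Class II means both factors in high cells and OCT4 without NANOG in negative cells. Region 5 was also the only 1 of the 10 regions in 5 of the 6 lists. Region 9 (87849472 to 87849691, 220 bp, intron 5) was listed for OCT4 in all 3 fractions and for NANOG in none. Regions 5 and 9 were thus the 2 positions near the gene at which OCT4 remained listed in Esrrb-GFP negative cells, and they lay on either side of region 6, at which it did not.

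NANOG was listed without OCT4 at 3 narrow regions. Region 1 (87807292 to 87807331, 40 bp), the most 5′ of all, lay in intron 1 and was listed in high and medium cells. Region 7 (87845412 to 87845471, 60 bp) had the same pattern and lay in intron 3, where it overlapped an exon of a shorter non-coding transcript of *Esrrb*, 82 bp from that transcript's start at 87845359. Region 8 (87845732 to 87845791, 60 bp), 260 bp further downstream, was listed in high cells alone and was the only NANOG region of high cells missing from medium cells.

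OCT4 was listed without NANOG at region 9 and at 2 further regions, each in a single fraction. Region 3 (87818712 to 87818931, 220 bp, intron 2) was listed in medium cells alone and lay 1000 bp upstream of region 4. Region 10 (87867552 to 87867591, 40 bp), downstream of the gene, was listed in high cells alone. Region 11, 35454 bp downstream and hence outside the 20 kb limit, was a 40 bp OCT4 region of high and negative cells that was missing from medium cells. No region near the gene was listed in negative cells and missing from high cells.

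The losses near *Esrrb* were set beside those of all listed regions. Of 6 regions with OCT4 in Esrrb-GFP high cells, 4 were missing in Esrrb-GFP negative cells (66.7%, exact 95% interval 22.3 to 95.7), against 45.1% of all OCT4 regions of high cells. From high to medium cells 1 of 6 was lost, against 21.3% of all. Of the 6 OCT4 regions of medium cells, 4 were missing in negative cells, against 44.1% of all. The OCT4 losses at the locus therefore fell between medium and negative cells, apart from region 10.

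NANOG was lost at all 7 regions of high cells by the negative fraction (100%, 59.0 to 100), against 97.5% of all NANOG regions of high cells, and at all 6 regions of medium cells, against 96.2% of all. These shares are near those of the whole lists. From high to medium cells 1 of 7 was lost (14.3%, 0.361 to 57.9), while 52.3% of all NANOG regions were. Where OCT4 was listed at the NANOG region in high cells, 4 of 4 were kept in medium cells near *Esrrb*, against 54.2% of 3675 such regions. Without OCT4, 2 of 3 were kept, against 43.6% of 5750.

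Of the 4 regions with both factors in high cells, 3 were Class I, against 55.3% of 3675 such regions, and 1 was Class II, against 42.6%. All 3 Class I regions near *Esrrb* held both factors in medium cells, as did 41.4% of 2034 Class I regions. Each of these exact intervals held the share found over all regions. With so few regions the intervals were wide, such as 19.4 to 99.4% for Class I, so they cannot decide whether the locus differs from the whole lists. Regions of 1 locus are not replicates, and the intervals cover counting error only. The regions near *Esrrb* were wider than most (median 220 bp, against 80 bp over all). Over all regions at least 200 bp wide, OCT4 of high cells was missing in negative cells at 48.1%, against 44.2% of narrower regions, and NANOG was kept in medium cells at 53.0%, against 46.0%. From high to medium cells the difference was larger, with OCT4 lost at 12.5% of wide and 23.9% of narrower regions, and near *Esrrb* at 0 of 5 wide regions and at the single narrow region, region 10.

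**Figure D2:**
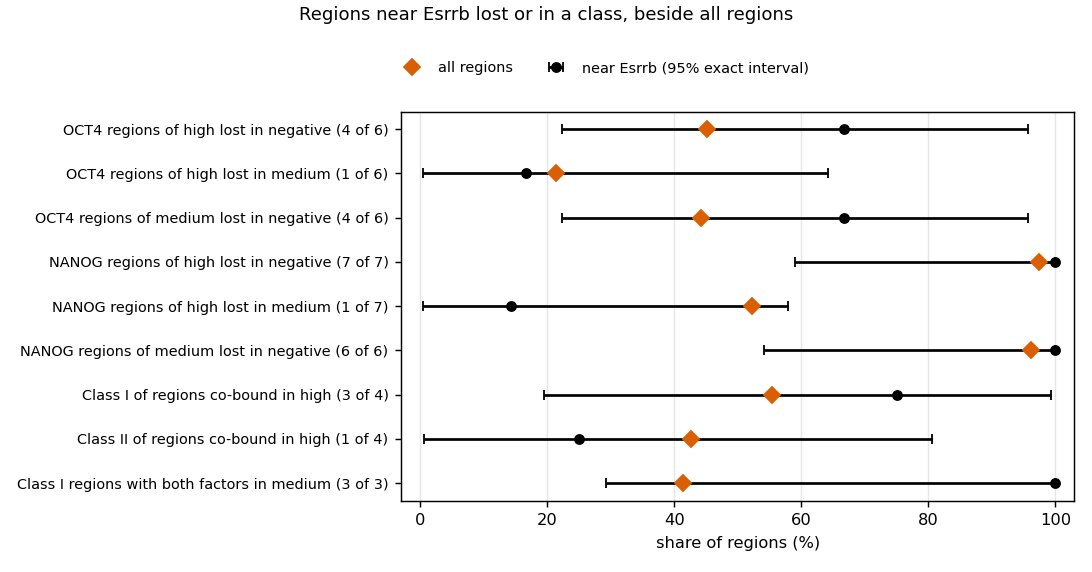
Share of regions (%, x axis) lost between fractions or in a class, with counts near *Esrrb* in parentheses; black points are the regions near *Esrrb* with exact 95% intervals and orange diamonds are all listed regions. All 9 intervals hold the diamond; the share of NANOG regions lost from high to medium cells is 14.3% near *Esrrb* and 52.3% over all regions.

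An exact octamer lay within 100 bp of the centre of 5 of the 10 regions, in a window of 201 bp, and in 7.88% of the windows of all regions. Among the 7 regions listed for OCT4 in any fraction 4 had an octamer (57.1%), against 9.48% of 18292 OCT4 regions. The octamer lay at 87811996 to 87812003 on the minus strand in region 2, at 87819990 to 87819997 on the plus strand in region 4 and at 87849534 to 87849541 on the minus strand in region 9. In region 10 it lay at 87867560 to 87867567 on the plus strand. The fifth octamer began just past the end of region 8, at 87845799, a NANOG region without OCT4. Octamers were thus found in 2 of the 3 Class I regions, which lost OCT4 in negative cells, and in region 9, which kept it. Over all Class I regions 6.98% had an octamer.

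Region 5, the Class II region, held no exact match to any of the 4 motifs. With up to 1 mismatch allowed in the octamer, region 5 gained a match on the minus strand from 87839932 to 87839939 (atgcaaaa). In region 9 the same sequence lay from 87849524 to 87849531, on the strand of its octamer just upstream of it in genome order. Both positions at which OCT4 remained listed in negative cells thus held atgcaaaa, which the windows of the other 8 regions did not, a likeness noticed after the matches had been seen. A match with up to 1 mismatch is common, however, and was found in 6 of the 10 windows and in 39.0% of all. The share of all windows that hold atgcaaaa itself was not counted. The Oct-Sox motif with up to 2 mismatches was found in 0 of 10 windows, against 6.81% of all, and with up to 3 mismatches in 2 of 10, regions 2 and 4, against 22.2% of all. Both of these longer matches contained the exact octamers of regions 2 and 4.

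Region 6 had no octamer but held the exact ESRRB motif at 2 positions, from 87842667 to 87842675 on the minus strand and from 87843009 to 87843017 on the plus strand, 333 bp apart. Both lay more than 100 bp from its centre, outside the window of 201 bp. Within the windows the ESRRB motif with up to 1 mismatch was found in 1 of 10 regions, against 11.2% of all, a share near the background. That match, in region 7, was exact and lay from 87845469 to 87845477, across the end of the region, and 1.40% of all windows held an exact match. In stretches of 520 bp, a length taken from region 6 after its matches had been seen, 2 of 10 regions (6 and 7) and 2.75% of all held an exact ESRRB motif. The KLF motif was found in 2 of 10 windows, against 4.19% of all. These matches lay on the minus strand, from 87807339 to 87807346 just past the end of region 1 and from 87820047 to 87820054 in region 4. Region 6 held another KLF motif outside its window, from 87842583 to 87842590. None of these matches overlapped another. They are descriptions of the reference sequence, and ESRRB or KLF binding was not part of the lists. The GC content of the 10 windows ranged from 41.3% to 59.2% with a median of 49.8%, against a median of 48.3% over all windows.

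**Figure D3:**
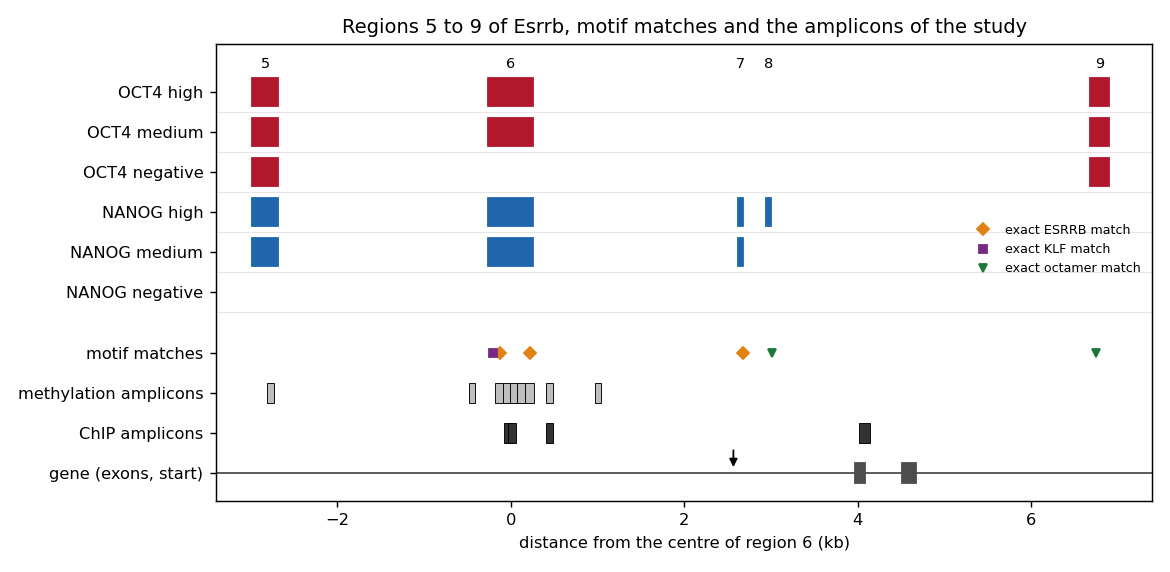
Regions 5 to 9 in kb from the centre of region 6, with 1 row for each factor and Esrrb-GFP fraction (red, OCT4; blue, NANOG). Lower rows show exact motif matches in or within 100 bp of the centre of the regions, methylation and ChIP amplicons of the study and 2 exons with the start of the non-coding transcript as an arrow. Most of the amplicons shown lie on or near region 6, which is absent from both negative rows, while region 5 to its left is still listed for OCT4 there.

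The amplicons that the study used at *Esrrb* were placed on mm9 by exact matches of their primers and set against the regions. The amplicon for OCT4 and NANOG ChIP by PCR, EE2 (forward primer tgctggtggtattcaactgc, reverse primer cggatctgtggaattcgtg), lay from 87842756 to 87842853, wholly within region 6. The amplicon for ESRRB ChIP, EE1, lay from 87842719 to 87842814 in the same region, between its 2 ESRRB motifs. By ChIP-PCR at the *Esrrb* enhancer, the study reported that OCT4 binding was abolished in Esrrb-GFP negative cells and that NANOG binding was graded. Of the methylation amplicons named for the *Esrrb* enhancer, E1, E2, E3b and E4 lay wholly within region 6 and E5 shared 101 of its 106 bp with it. The enhancer methylation amplicons Em3, E6 and E7 overlapped no region and lay 153, 151 and 710 bp from region 6. E6 was also used for ChIP of histone marks, and the H3K4me1 amplicon lay 1019 bp from region 8. The amplicon EE m 4 lay within region 5, from 87839978 to 87840060, and thus at a region with another OCT4 pattern. Region 6 held 11 CpG dinucleotides and region 5 held 4. The 6 promoter amplicons, from 87810362 to 87811173, lay around the start at 87811067 and overlapped no region, with region 2 the nearest at 719 to 1415 bp. The non-binding control amplicon E3', downstream of the gene, overlapped no region and lay 1434 bp from region 10.

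No region lay at the more 5′ starts of the gene. The RefSeq promoter windows of 300 bp (GRCm38.p6 table, both matched exactly on mm9) lay at 87701817 to 87702116, 105176 bp from the nearest region, and at 87762344 to 87762643, 44649 bp from it. Neither window held any of the 4 motifs at the limits used for regions. Upstream of the gene the nearest listed region lay 172716 bp away, and downstream of region 11 the next lay 247614 bp from the gene end. The 3 annotated genes with bodies within 100 kb, *1700020O03Rik*, the lincRNA *4732487G21Rik* and the miRNA AC102689.1, had 0 regions within 20 kb. *Esrrb* was accordingly the closest protein-coding gene for all 10 regions.

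Regions within 20 kb were also counted for all 22380 protein-coding genes. More regions than the 10 of *Esrrb* were found at 80 genes, and 11996 genes had 0. Long genes can gather more regions, and among 929 genes of a body length within 25% of that of *Esrrb*, 15 had 10 or more, *Esrrb* included. Per length, *Esrrb* with its flanks had 4.99 regions per 100 kb, more than 94.8% of genes. At least 3 Class I regions were found at 32 genes and at least 7 NANOG regions of high cells at 27 genes.

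Among 17 other genes of the pluripotency network, 0 had 10 or more regions, 7 or more NANOG regions in high cells or 3 or more Class I regions, and the median was 5 regions. These counts were not scaled to length. The body of *Esrrb*, 160.5 kb, was longer than that of any of the 17, with 2.457 kb for *Sox2* and 2.624 kb for *Klf2*. With flanks of 20 kb included, most of the 17 held more regions per length than *Esrrb*, among them *Sox2* and *Klf2*. Fewer per length were held by *Klf4* and *Klf5*, with 1 region each, and by *Tcfcp2l1*, *Nr5a2*, *Nr0b1* and *Stat3*. *Sox2*, whose product partners OCT4, had the most regions of the 17, namely 8. OCT4 was listed at 5, 6 and 6 of these in high, medium and negative cells, and 3 were Class II with 0 Class I. *Pou5f1*, which encodes OCT4 itself, had OCT4 at 3, 5 and 4 regions in the same order. *Nanog* had 4 regions, with NANOG at 1 region in each fraction. *Klf2*, a KLF gene of the network, had the 6 counts most like those of *Esrrb* among the 17 (Bray-Curtis dissimilarity 0.227), with OCT4 at 4, 5 and 1 regions and NANOG at 4, 3 and 0. It was also the only gene of the 17 with both classes, 2 Class I regions and 1 Class II region. *Tet2*, which encodes a 5-methylcytosine dioxygenase, had OCT4 at 3, 3 and 1 regions and NANOG at 5, 3 and 0, and 2 of its regions were Class I. Of 41 OCT4 regions of high cells summed over the 17 genes, 25 were missing in negative cells, against 45.1% of all OCT4 regions of high cells. At *Esrrb* 4 of 6 were missing (66.7%), a share not far from that of the 17 genes together.

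**Figure D4:**
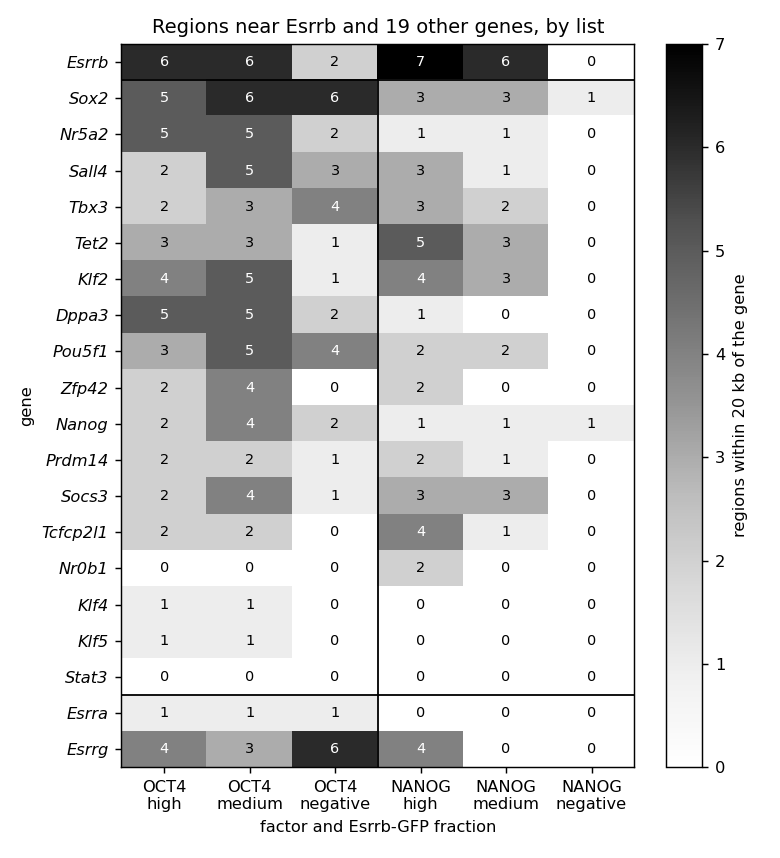
Number of listed regions within 20 kb of each gene (rows) in each of the 6 lists (columns); grey level and printed number give the count, and lines set off *Esrrb* at the top and its paralogs *Esrra* and *Esrrg* at the bottom. *Esrrb* has 6, 6 and 2 OCT4 regions and 7, 6 and 0 NANOG regions in high, medium and negative cells, while *Sox2* has 6 OCT4 regions in negative cells.

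The paralogs encode the other estrogen-related receptors. *Esrra* had 1 region, listed for OCT4 in all 3 fractions. *Esrrg*, a gene of 606 kb, had 9 regions, with OCT4 at 4, 3 and 6 of them in high, medium and negative cells and NANOG at 4, 0 and 0. OCT4 was thus listed at more *Esrrg* regions in negative than in high cells, the reverse of *Esrrb*. NANOG was listed at no *Esrrg* region in medium cells, whereas *Esrrb* kept 6. The genes whose 6 counts were most like those of *Esrrb*, by Bray-Curtis dissimilarity over 10383 genes that share no region with it, were *Sox5* (0.0769), *2900011O08Rik* (0.0909), *Morc1* (0.0943), *Lrrtm4* (0.0980) and *Reep3* (0.0980). *Sox5* had OCT4 at 7, 6 and 2 regions and NANOG at 6, 4 and 0, with 4 Class I and 0 Class II. *2900011O08Rik* had 3 Class I regions and 1 Class II region, the same numbers as *Esrrb*. *Morc1*, *Lrrtm4* and *Reep3* also had regions of both classes. None of the 17 pluripotency genes was among these 5.

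All 6 lists rest on 1 library each, and a region missing from a list can lie just under the authors' limit of retained signal. Differences in the number of listed regions between libraries, such as 286 NANOG regions in negative cells against 9425 in high cells, move with the losses at *Esrrb*, and their part in those losses was not tested.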

How the data were processed

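Per the labels, the 6 lists come from OCT4 and NANOG ChIP-Seq in 3 sorted fractions, 1 library each. The authors aligned reads to mm9 (Bowtie per the labels, within GeneProf) and called peaks with SISSRs. Peaks that overlapped between datasets were merged by the authors, and a region counted as lost in a fraction that retained under 50% of the maximum signal, after scaling for library depth. The deposited files hold chromosome, start and end only. Their 51722 entries are 23767 distinct intervals without overlaps, so widths depend on the merging across datasets. Depth is not given in the sources used here.

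Samples were grouped by antibody and sorted fraction. Regions were assigned to *Esrrb* by distance to the gene body in GENCODE, which uses the same assembly. Presence required 1 bp of overlap with a list. Shares have exact (Clopper-Pearson) 95% intervals. Motifs were searched on both strands within 100 bp of region centres: the exact octamer, Oct-Sox with up to 2 mismatches, ESRRB with up to 1 and the exact KLF motif. The named genes are 17 genes of the pluripotency network, the paralogs, the 5 genes with the most similar counts and the genes within 100 kb. Members, gene lists and motifs were chosen with earlier results of these data known. Primer sequences came from the study's supplementary material. Functions were tested on simulated data with 1922 regions, and 9 of 9 known answers were recovered. Python 3.11.15, numpy 2.4.6, scipy 1.17.1, matplotlib 3.10.9 and samtools 1.23.1 were used. Alternatives were other distances, joining of near regions, wider regions only, a stricter overlap and the closest gene.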

Additional observations from a re-analysis of the deposited data

How the results depend on the processing

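Of 51 comparisons of 8 counts with their values under 15 alternatives, 47 stayed within 1.5 times the value given above. Some of these could not have moved. The intervals do not overlap, so the stricter overlap changed nothing, and joining within 100 bp could not act because the smallest gap was 260 bp. A distance of 5 kb and the closest gene returned the same 10 regions. The number 47 is therefore not a measure of how stable the counts are. With regions narrower than the median of their own list left out, 6 regions remained and NANOG of high cells was lost in negative cells at 4 of 4, because the narrow regions drop out. Under that alternative the counts of 3 Class I regions and 1 Class II region were the same. The Oct-Sox count went from 0 to 2 with up to 3 mismatches, and the count of regions with an ESRRB match from 1 to 2 in stretches of 520 bp with exact matches. These and 4 other motif settings were chosen after seeing the data. Under the other alternatives the number of regions ranged from 9 to 11. No paired analysis was possible because only 1 library was made for each factor and fraction, and no library could be left out for the same reason. Absence from a list, at unknown depth, is not absence of binding.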
